A study of Mus musculus with 36 samples.

Results

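The genes described here encode the building blocks of the 2 filament systems that shape a dividing muscle precursor cell: the 2 non-muscle actins (Actb and Actg1), 3 alpha-tubulins (Tuba1a, Tuba1b and Tuba1c) and 5 beta-tubulins (Tubb5, Tubb6, Tubb2a, Tubb4b and Tubb3). These 10 genes were taken by symbol from the 49315 genes of the deposited count files, and all 10 were among the 11558 genes with enough counts to be tested. Polyadenylated RNA was counted in C2C12 cells, an established mouse myoblast line, labelled as proliferating. All groups were seeded at 1500 cells/cm2 in sealed experiment units and fixed with RNAlater. The cells aboard the space station were kept in an incubator set at 37 °C, with the last fluidic activation at day 9, and the whole run was afterwards repeated on the ground in the same hardware. The 6 groups, each of 3 libraries, covered 3 regimes, which were land, space with gravity and space lacking it, each without nanoparticles or with 100 µg/ml of serum-coated nanoceria (cerium oxide nanoparticles). "With gravity" and "without gravity" are the labels' own terms. In the plots the groups carry the labels' letters, A and B for space without gravity, C and D for space with gravity and E and F for land, the second letter of each pair being the nanoceria group. Because the ground run was a separate experiment, a difference of space from land cannot be told apart from one between runs.

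Actin monomers assemble into filaments that drive cell shape, crawling and division. Dimers of alpha- and beta-tubulin assemble into microtubules, which carry cargo and build the mitotic spindle. Cells hold the supply of both in check through feedback: free actin holds the cofactors of the transcription factor SRF away from actin genes, and an excess of free tubulin leads to decay of tubulin mRNAs while they are translated, through the factor TTC5, which reads the start of the nascent chain. In myoblasts the non-muscle actins and the widely used tubulins are abundant, and muscle actins take over as cells fuse.

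The coding starts are shown because they hold both what separates the non-muscle actins and the stretch used in tubulin mRNA feedback. They were read from the GRCm38.p6 genome at the annotated coding exons, 5′ to 3′ on the coding strand, 30 bases each. Actb lies on chromosome 5 (142903115 to 142906754, minus strand, start codon at 142905686) and Actg1 on chromosome 11 (120345690 to 120348542, minus strand, start codon at 120348091), and capitals mark the 8 bases at which the pair differs.
Actb: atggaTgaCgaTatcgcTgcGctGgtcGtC
Actg1: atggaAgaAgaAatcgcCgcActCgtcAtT
In the tubulins capitals mark the first 12 bases, which encode the stretch read by TTC5. Tuba1a (98949841 to 98953551) and Tuba1b (98931425 to 98934565) lie on the minus strand of chromosome 15, Tubb2a on the minus strand of chromosome 13 (34074301 to 34078008), Tubb4b on the minus strand of chromosome 2 (25222160 to 25224702) and Tubb3 on the plus strand of chromosome 8 (123411424 to 123422015).
Tuba1a start: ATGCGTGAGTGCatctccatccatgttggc
Tuba1b start: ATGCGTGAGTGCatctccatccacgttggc
Tubb2a start: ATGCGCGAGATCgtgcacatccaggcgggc
Tubb4b start: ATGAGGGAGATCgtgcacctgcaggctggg
Tubb3 start: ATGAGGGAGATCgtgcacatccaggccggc
The last 54 coding bases, which end in the stop codon, encode the acidic tail by which tubulin isotypes differ most. They are shown for Tubb2a and Tubb4b, the 2 beta-tubulins called in both comparisons of space with land.
Tubb2a end: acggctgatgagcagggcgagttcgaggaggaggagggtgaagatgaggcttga
Tubb4b end: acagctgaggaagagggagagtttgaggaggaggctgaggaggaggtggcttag

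These likenesses bear on every value that follows, because a short read from a repeated stretch cannot be assigned to 1 gene. Over the whole coding sequence Tuba1a and Tuba1b were 98.3% identical, with 23 mismatched bases, and the 3 alpha-tubulin pairs ranged from 97.1% to 98.3%. The beta-tubulin pairs among the 5 genes were farther apart, at 80.2% to 85.9%, but Tubb2a was 96.5% identical to Tubb2b, a beta-tubulin outside the group of 10. Of all exonic stretches of 50 bases, the share also found elsewhere in the genome was 86.0% for Tuba1b, 73.3% for Tuba1a, 64.3% for Tuba1c and 63.8% for Actg1. It was 55.8% for Tubb2a and 42.3% for Tubb4b, and was 11.2% for Tubb3, 9.41% for Actb, 1.13% for Tubb5 and 0% for Tubb6. Levels of the first 6 of these therefore depend on how reads with several matches were counted, which is not given in the sources used here, and those of Tubb3, Actb, Tubb5 and Tubb6 depend on it least. The exons of Tubb4b also overlap 121 bases of Fam166a on the opposite strand, which held 6 counts over all libraries, and those of Actg1 overlap 2 small RNA genes with 0 counts.

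**Figure D1:**
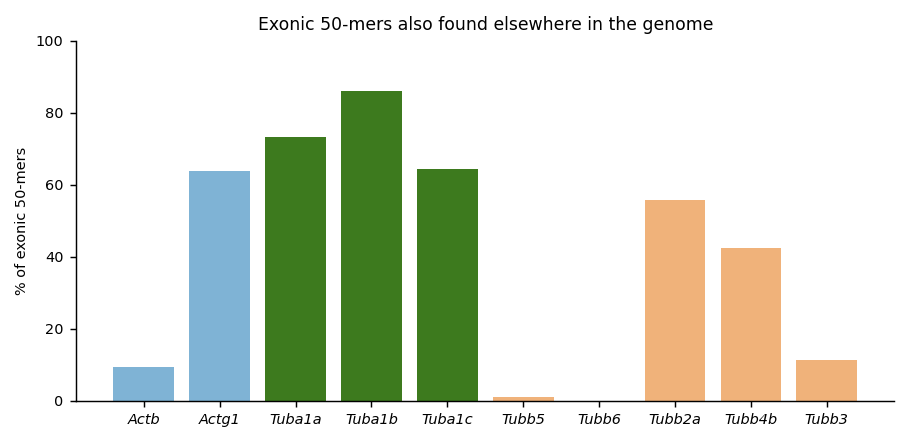
Bars give the percentage of each gene's exonic 50-base stretches (y axis) that also occur elsewhere in GRCm38.p6, for actins (blue), alpha-tubulins (green) and beta-tubulins (orange). The 3 alpha-tubulins and Actg1 stand above 60%, and Tubb5 and Tubb6 near the axis at 1.13% and 0%.

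Of the 18 libraries, 17 held 2986628 to 11378178 counts. The remaining one, replicate 3 of the nanoceria group in space with gravity, had a total of 23858, of which 114 were Actb, 4 Tuba1a, 1 each Actg1, Tuba1b, Tubb5 and Tubb4b, and 0 the other 4 genes. In that library 3 counts corresponded to 35.7 CPM (counts scaled by TMM library size), above the median level of Tuba1c, Tubb6, Tubb2a and Tubb3, so levels below are given over the other 17, while fits used all 18. In those 17, 6 dominant genes, Lars2 and 5 predicted genes, took 24.5% to 76.3% of counts. Of 7 myoblast markers, Myf5 (20.0 to 163 CPM), Des (29.9 to 433 CPM) and Vcam1 had counts in all 18 libraries. Myod1 had counts in 10 of 18 with a median of 0.158 CPM. Medians were 7.05 CPM for Itga7, 1.46 for Vcam1, 0.797 for Cdh15 and 0.319 for Pax7. Summed, the 7 reached 245 to 554 CPM on land with nanoceria and 70.6 to 250 CPM in the other larger libraries. Of the 6 tested, edgeR called 0 against land. All 6 were lower in both space regimes (median log2 fold changes -0.70 with gravity and -0.60 without). An unadjusted p under 0.05 was held by 2 with gravity (31.9% of all genes) and 0 without (24.7%). Of the 11 myotube markers Acta1 had counts in all 18 libraries, Tnnt3 and Mylpf in 12, Mymk in 11, Myog in 5 and Ckm in 4. Their summed level was 113 CPM in untreated land replicate 1 and 0.659 to 19.7 CPM in the other 16 larger libraries.

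Actb was the most abundant of the 10 by far. Per kilobase of exon its median over 17 libraries was 2370 CPM/kb (813 to 9082), and its lowest library stood above the highest library of every other gene in the group. In per-length order Tubb5 followed with 41.3 CPM/kb, then Tuba1b (39.8), Actg1 (29.6), Tuba1a (28.9), Tubb4b (22.6), Tubb6 (17.02), Tuba1c (11.6), Tubb2a (4.34) and Tubb3 (1.81). Below Actb the ranges of all neighbours in this order overlapped, so their order is that of the medians only. That order also depends on how reads with several matches were counted. Tubb3, the beta-tubulin used as a neuronal marker, ranged from 0.215 to 18.6 CPM/kb, and Tubb2a, another isotype rich in neurons, from 2.35 to 55.7 CPM/kb. Of the 10 medians, that of Actb stood at the 99.9th percentile of all tested genes per length and that of Tubb3 at the 50.8th. Outside the group, the muscle actin gene Acta2 had a median of 84.9 CPM/kb, above every median of the 10 but that of Actb. Repeated stretches were not counted for Acta2, so this rank carries the same limit.

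**Figure D2:**
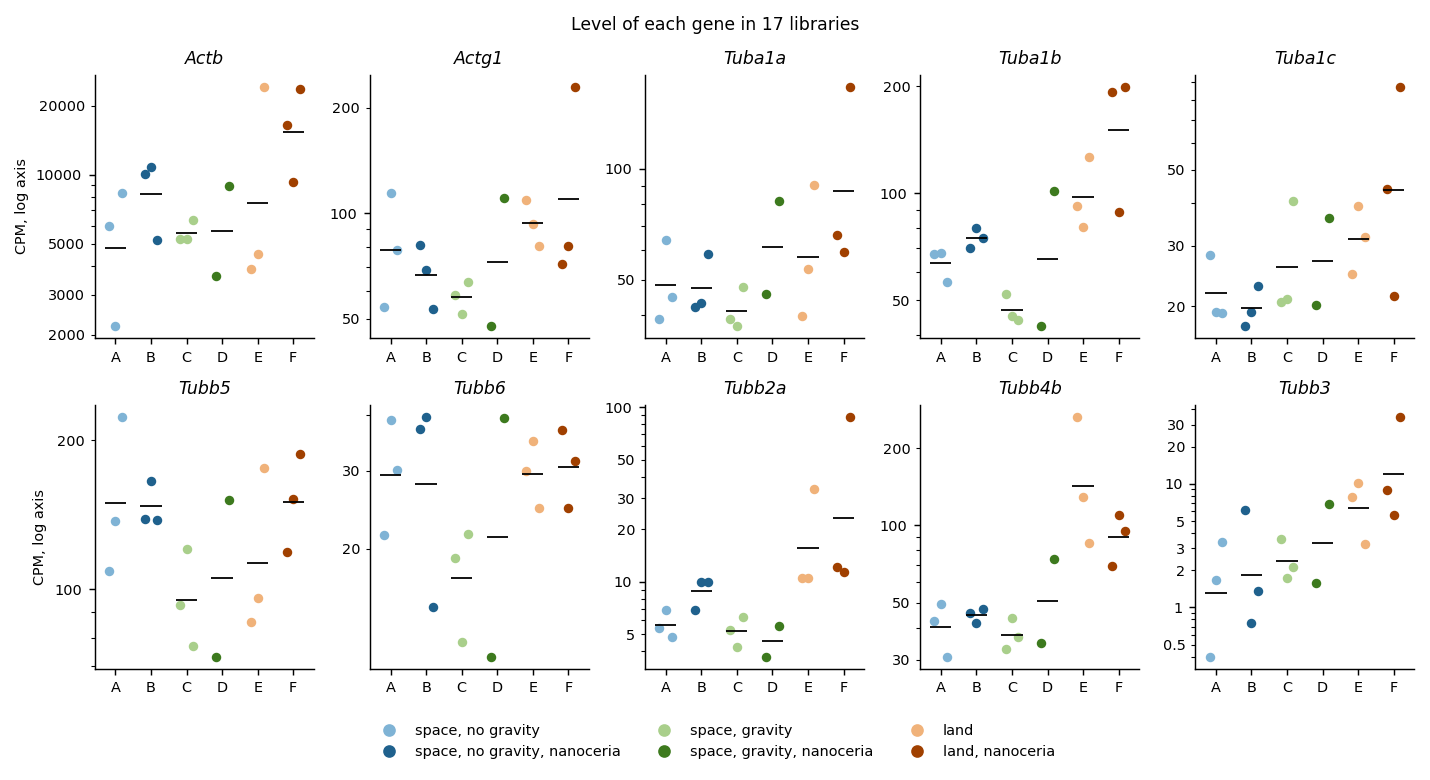
Each point is 1 library's level in CPM (log axis, a separate scale in each panel) in groups A to F, and black bars are geometric means. The smallest library (in group D) is left out, and the highest of 17 libraries belonged to group F, replicate 3, for 6 of the 10 genes.

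Both actins had their highest single libraries on land. Over the 11558 genes tested, edgeR's quasi-likelihood test with TMM scaling called neither in any comparison. Actb, which encodes beta-actin, stood in space without gravity at 5995, 2177 and 8333 CPM without nanoceria and at 10092, 10831 and 5168 CPM with it. In space with gravity its level was 5219, 5237 and 6349 CPM without nanoceria and 3602 and 8962 CPM with it. On land it was 3897, 4504 and 24330 CPM without nanoceria and 16436, 9288 and 23723 CPM with it. The land values thus spanned a wider range than all space values, with the untreated group split between 2 low libraries and 1 high one, and land and space overlapped. Actb was lower in space with gravity than on land by a log2 fold change of -1.39 ± 0.59 (SE), with an adjusted p of 0.111 (edgeR's quasi-likelihood test, Benjamini-Hochberg over all genes tested), and -0.96 ± 0.58 in space without gravity (adjusted p = 0.317). In space with gravity Actb was called lower than land by the DESeq2 test (-1.71, adjusted p = 0.00697), and by edgeR with DESeq2 size factors (adjusted p = 0.0409) or among genes with a mean of at least 50 counts (adjusted p = 0.0378). As a share of counts outside the 6 dominant genes, a measure free of TMM scaling, Actb took 0.643% to 1.55% in space with gravity, 0.828% to 2.24% in space without gravity and 1.37% to 5.23% on land. Actg1, which encodes gamma-actin, ranged from 47.5 to 110 CPM in space with gravity, from 53.2 to 115 CPM in space without gravity and from 71.5 to 230 CPM on land. Its log2 fold changes against land were -0.87 ± 0.43 (adjusted p = 0.172) with gravity and -0.55 ± 0.43 (adjusted p = 0.440) without, and the DESeq2 test called the first (-1.22, adjusted p = 0.0283).

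Space with gravity against land was the comparison in which most of the group stood lower. Tuba1b, Tubb2a and Tubb4b fell, which is 3 of the 10 genes called and all 3 lower, where 14.0% of all tested genes were called and 6.74% were called lower. At an unadjusted p under 0.05 there were 5 of 10, beside 31.9% of all genes. All 10 log2 fold changes were below 0, with a median of -1.08 beside -0.04 over all tested genes, of which 48.4% were above 0. In space without gravity against land, Tubb2a, Tubb4b and Tubb3 fell, again 3 of 10 and all 3 lower, where 5.25% of all genes were called and 2.44% were called lower, and at an unadjusted p under 0.05 there were 5 of 10, beside 24.7% of all genes. There 9 of 10 genes were below 0, with a median of -0.91 beside -0.02 over all genes, and 49.0% of all genes were above 0. Both comparisons use the same land libraries, so they are not independent of each other. In bulk RNA, fewer cells of a type and less RNA per cell cannot be told apart.

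Among the alpha-tubulins edgeR called Tuba1b alone, in space with gravity. Tuba1b, a widely expressed isotype of growing cells, stood, in space with gravity, at 52.0, 45.2 and 44.0 CPM untreated and at 42.2 and 102 CPM with it. On land it was 92.0, 80.3 and 127 CPM without nanoceria and 193, 88.6 and 200 CPM with it. In the 5 space libraries, 4 lay below every land library, and the nanoceria replicate 2 lay within the land range. The difference was -1.29 ± 0.39 on the log2 scale (adjusted p = 0.0378). The call depended on single libraries: it was lost in 9 of 12 fits that left out 1 library of the compared groups (adjusted p between 0.0218 and 0.117 over the 12), and remained without replicates 2 or 3 of space with gravity and nanoceria or replicate 2 of land with nanoceria. Tuba1b in space without gravity ranged from 56.1 to 79.8 CPM, below the lowest land library in every library, but its difference of -0.87 ± 0.39 did not pass in edgeR (adjusted p = 0.173), and did by the DESeq2 test (-1.13, adjusted p = 0.0208). Tuba1a, abundant in developing neurons and also in fibroblasts, ranged from 37.3 to 81.8 CPM in space with gravity, 39.1 to 63.9 in space without gravity and 39.9 to 167 CPM on land. Its log2 fold changes against land were -0.64 ± 0.37 (adjusted p = 0.245) with gravity and -0.67 ± 0.36 (adjusted p = 0.263) without. Tuba1c had medians of 21.1, 19.3 and 35.5 CPM in space with gravity, space without gravity and land, and its differences of -0.68 ± 0.43 and -0.94 ± 0.42 did not pass in edgeR (adjusted p = 0.290 and 0.179). The DESeq2 test called the second (-1.24, adjusted p = 0.0359).

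The beta-tubulins were uneven. Tubb4b, a widely expressed isotype also used in cilia, stood, in space without gravity, at 42.3, 49.5 and 30.8 CPM untreated and at 45.4, 41.6 and 47.2 CPM with it. In space with gravity it was 32.9, 43.7 and 36.7 CPM without nanoceria and 34.8 and 74.0 CPM with it. On land it was 265, 129 and 85.4 CPM without nanoceria and 69.6, 110 and 95.4 CPM with it. Every library of space without gravity lay below every land library, and in space with gravity 4 of 5 did. Tubb4b fell by 1.56 ± 0.40 on the log2 scale in space with gravity (adjusted p = 0.0182) and by 1.50 ± 0.39 in space without gravity (adjusted p = 0.0363), both against land. The first call was lost without replicate 1 of space with gravity of either treatment or without replicate 1 of untreated land (adjusted p up to 0.0681), and the second in 9 of 12 such fits (adjusted p up to 0.115). Untreated land replicate 1, which had the highest Tubb4b level, was also the library with the highest summed level of myotube markers, and the part of these markers in the Tubb4b difference was not tested.

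Tubb2a showed the largest difference of the 10 in space with gravity. Its level was 5.29, 4.21 and 6.26 CPM there without nanoceria and 3.72 and 5.58 CPM with it. Libraries of space without gravity held 5.42, 6.88 and 4.81 CPM untreated and 6.84, 10.0 and 9.99 CPM with it. On land it was 10.5, 10.5 and 34.2 CPM without nanoceria and 12.2, 11.4 and 88.2 CPM with it. No space library of the 11 reached the lowest land library, and replicate 3 of each land group stood far above the other 4. Tubb2a fell by 2.45 ± 0.54 on the log2 scale in space with gravity (adjusted p = 0.0111) and was called in all 12 fits that left out 1 library (adjusted p up to 0.0495). Its size rested in part on replicate 3 of land with nanoceria, without which it was -1.60 (adjusted p = 0.0303), and it was -1.19 (adjusted p = 0.0448) without replicate 3 of both land groups. Its fall in space without gravity was by 1.87 ± 0.51 (adjusted p = 0.0420), a call kept in 2 of 12 such fits, those without replicate 1 or 2 of land with nanoceria. Without replicate 3 of land with nanoceria the second difference was -1.03, and without replicate 3 of both land groups it was -0.63 (adjusted p = 0.272), an alternative chosen after seeing the data. These calls are edgeR's, and the DESeq2 test gave Tubb2a no adjusted p in either comparison with land, so it could call neither.

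Tubb3 was the least abundant of the 10. It held, in space without gravity, 0.401, 1.68 and 3.39 CPM untreated and 6.11, 0.742 and 1.35 CPM with it. In space with gravity it held 3.61, 1.72 and 2.14 CPM without nanoceria and 1.58 and 6.85 CPM with it. On land the values were 7.86, 10.2 and 3.29 CPM without nanoceria and 8.89, 5.61 and 34.8 CPM with it. Space and land overlapped in both comparisons, and the lowest space values rest on 2 counts each. Tubb3 fell by 2.24 ± 0.64 on the log2 scale in space without gravity against land (edgeR, adjusted p = 0.0498), a call kept in 3 of 12 fits that left out 1 library. Its difference of -1.79 ± 0.65 in space with gravity did not pass in edgeR with TMM over the 11558 genes tested (adjusted p = 0.0725). That difference was called by the DESeq2 test (-2.18, adjusted p = 0.0116), limma voom (-1.73, adjusted p = 0.0408), edgeR with DESeq2 size factors (-2.18, adjusted p = 0.0322) and edgeR without a filter (-1.68, adjusted p = 0.0431). The summed level of 7 neuronal marker genes was 5.70 to 11.5 CPM in space with gravity, 8.42 to 25.9 CPM in space without gravity and 21.7 to 31.2 CPM on untreated land. On land with nanoceria it was 27.8, 18.4 and 176 CPM, so the top of that range is a single library. Land and space without gravity overlapped in this sum, and its relation to Tubb3 over the libraries was not tested. Of the 5 neuronal markers tested, 1 (Nefl, a neurofilament gene) was called lower in each space comparison. The shares of all genes called were 14.0% with gravity and 5.25% without. All 5 were lower in both (median log2 fold changes -2.09 with gravity and -2.53 without). In edgeR an unadjusted p under 0.05 was held by 4 of 5 with gravity (31.9% of all genes) and 3 of 5 without (24.7%). Rbfox3 was at 0 in 13 of 18 libraries. Summed, the 6 fibroblast markers reached 199, 64.2 and 1268 CPM on untreated land and 110, 83.7 and 2409 CPM on land with nanoceria. This sum was 36.6 to 319 CPM in space with gravity and 95.3 to 385 CPM in space without gravity. The top of each land group was thus a single library, its replicate 3, which also held that group's highest Tubb2a level. Of the 4 tested, Col1a1 was called lower by edgeR in space with gravity against land (-4.82, adjusted p = 0.0140), and Lum was at 0 everywhere. Replicate 3 of untreated and nanoceria land held 877 and 1750 CPM of Col1a1, and the other land libraries 15.9 to 108 CPM. None of the 4 was called in space without gravity, where edgeR gave 2 an unadjusted p under 0.05, beside 24.7% of all genes. None of 4 endothelial markers had enough counts to be tested, and edgeR called 0 of 2 tested macrophage markers in the 4 averaged comparisons. At an unadjusted p under 0.05, 1 of these 2 was lower in each space comparison with land. The shares of all genes at that level were 31.9% with gravity and 24.7% without. The part of these markers in the tubulin differences was not tested.

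Tubb5 and Tubb6, the isotypes with the fewest repeated stretches, did not pass against land. Tubb5, a main beta-tubulin of dividing cells, had medians of 93.2 CPM in space with gravity, 139 CPM in space without gravity and 136 CPM on land. Its differences against land were -0.57 ± 0.43 with gravity (adjusted p = 0.375) and 0.17 ± 0.42 without (adjusted p = 0.841). Tubb6 had medians of 19.0, 33.7 and 30.7 CPM in the same order, with differences of -0.66 ± 0.43 (adjusted p = 0.306) and 0.00 ± 0.42 (adjusted p = 0.999). The ranges of all 3 regimes overlapped for both genes.

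**Figure D3:**
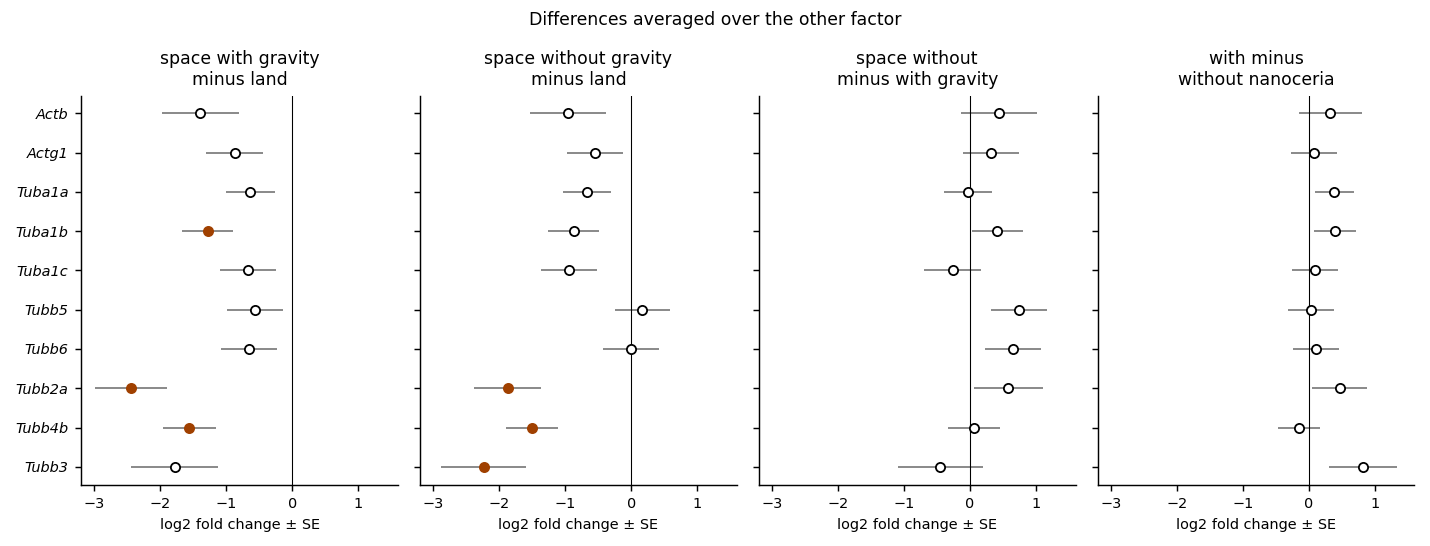
Points are log2 fold changes and bars their standard errors (x axis) for the 10 genes in 4 comparisons, each averaged over the other factor, with filled points where the adjusted p was under 0.05. All 10 points lie left of 0 in space with gravity against land, where Tubb2a is at -2.45, Tubb4b at -1.56 and Tuba1b at -1.29, and no point is filled for gravity or nanoceria.

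The space libraries also differed from land in the share of the 6 dominant genes, which was 24.5% to 54.4% in space with gravity, 40.7% to 70.3% in space without gravity and 49.6% to 76.3% on land. With that share as a covariate none of the 10 genes was called in either comparison by edgeR, and in all 1 and 6 genes were. For space with gravity the log2 fold changes were then -0.73 for Tuba1b, -2.72 for Tubb2a and -0.63 for Tubb4b (adjusted p = 0.690, 0.182 and 0.755). For space without gravity they were -1.96 for Tubb2a, -1.06 for Tubb4b and -1.94 for Tubb3 (adjusted p = 0.132, 0.246 and 0.305), so that the differences of Tubb2a and Tubb3 kept most of their size while their calls were lost. Scaling by DESeq2 size factors in place of TMM moved the median of all genes by -0.34 in space with gravity and -0.25 in space without gravity, and changed the split of called genes from 834 higher and 779 lower to 628 and 1558 in the former and from 325 and 282 to 261 and 552 in the latter. The median of the 10 genes less that of all genes was, in space with gravity, -1.03 under TMM and -1.04 under size factors. In space without gravity it was -0.88 and -0.90. Such a change of scaling shifts all genes of a library alike, so this difference could hardly have moved. With the share of dominant genes as a covariate it was -0.56 in space with gravity and -0.63 in space without gravity, and by limma voom -1.16 and -0.64.

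None of the 10 passed the test for gravity in space. edgeR called 0 of the 10 genes between space without and with gravity, where 0% of all genes were called. At an unadjusted p under 0.05 it counted 0 of 10, where 5.85% of all genes passed. DESeq2 and limma voom also called 0, with 1 gene each at an unadjusted p under 0.05. The log2 fold change was above 0 for 7 of 10, beside 52.9% of all genes. The largest differences were those of Tubb5 (0.74 ± 0.43, adjusted p = 0.918) and Tubb6 (0.65 ± 0.43, adjusted p = 0.931), both higher without gravity, and the lowest was that of Tubb3 (-0.45 ± 0.65). Actb differed by 0.44 ± 0.58 and Tuba1b by 0.42 ± 0.39. With the smallest library left out, the median of the 10 went from 0.37 to 0.18.

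None passed for nanoceria, averaged over the 3 regimes. Again edgeR called 0 of 10, where 0% of all genes were called and 6.54% had an unadjusted p under 0.05, with 0 of the 10 among them, and DESeq2 and limma voom gave 0 on both counts. The log2 fold change was above 0 for 9 of 10 genes, where 47.3% of all genes were above 0, with a median of 0.22. It ranged from -0.14 ± 0.32 for Tubb4b to 0.82 ± 0.52 for Tubb3 (adjusted p = 0.801). Within land the values were 1.19 ± 0.86 for Tubb3, 1.02 ± 0.70 for Tubb2a and -0.80 ± 0.55 for Tubb4b, within space with gravity 0.64 ± 0.93, -0.27 ± 0.76 and 0.24 ± 0.55, and within space without gravity 0.63 ± 0.90, 0.64 ± 0.71 and 0.13 ± 0.54. None passed. In the 9 comparisons of single groups edgeR called 0 of 10 each time, beside 0.00865% of all genes in space with gravity against land with nanoceria, 0.0433% in space without gravity against land with nanoceria and 0% in the other 7. At an unadjusted p under 0.05 the nanoceria comparisons held 0 of the 10, beside 3.97% of all genes in space without gravity, 4.46% in space with gravity and 10.2% on land. Those of gravity held 0 of the 10, beside 4.05% of all genes untreated and 5.78% with nanoceria. Space with gravity against land held 2 untreated (all genes 21.5%) and 4 with nanoceria (20.5%), and space without gravity against land held 3 untreated (13.0%) and 3 with nanoceria (19.2%). In neither interaction test, whether the gravity difference depended on nanoceria or the nanoceria difference on the regime, did edgeR call any of the 10 or any gene at all. At an unadjusted p under 0.05 those tests held 4.26% and 6.14% of all genes and 0 of the 10, and DESeq2 and limma voom called 0 of the 10.

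Ratios of 2 genes within a library do not depend on scaling, and 3 were tested under 3 comparisons each with exact permutation tests, 9 tests in all. None passed after adjustment. The count of Actb divided by that of Actg1 was 89.2, 102 and 99.9 in the untreated libraries of space with gravity, but 111, 19.0 and 106 in those of space without gravity and 35.7, 48.3 and 301 in those of land. With nanoceria it was 75.8 and 81.1 in the larger libraries of space with gravity, 125, 157 and 97.2 in space without gravity and 230, 115 and 103 on land. The actin ratio was thus close between libraries in both groups of space with gravity, while the spread of untreated space without gravity came from its replicate 2 and land varied in both groups. Tuba1b relative to Tuba1a was 1.33, 1.21, 0.924, 0.922 and 1.24 in the 5 larger libraries of space with gravity, against 2.31, 1.50, 1.40, 2.91, 1.49 and 1.19 on land. The first 5 and the land values overlapped in part. The difference of mean log2 ratios, smallest library included, was -0.91 (2-sided exact permutation p = 0.010, adjusted p = 0.090, smallest possible p 0.005), and -0.63 without that library (adjusted p = 0.315). Without gravity in space the same ratio was higher than with gravity by 0.66 (exact p = 0.045, adjusted p = 0.203), and by 0.38 without the smallest library (exact permutation, adjusted p = 0.338). For Tubb5 relative to Tubb6 the difference between space with gravity and land was 0.16 (exact p = 0.675). With nanoceria the 3 ratios differed by 0.50 (actins, exact p = 0.269), -0.12 (alpha-tubulins, exact p = 0.687) and less than 0.01 (beta-tubulins).

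**Figure D4:**
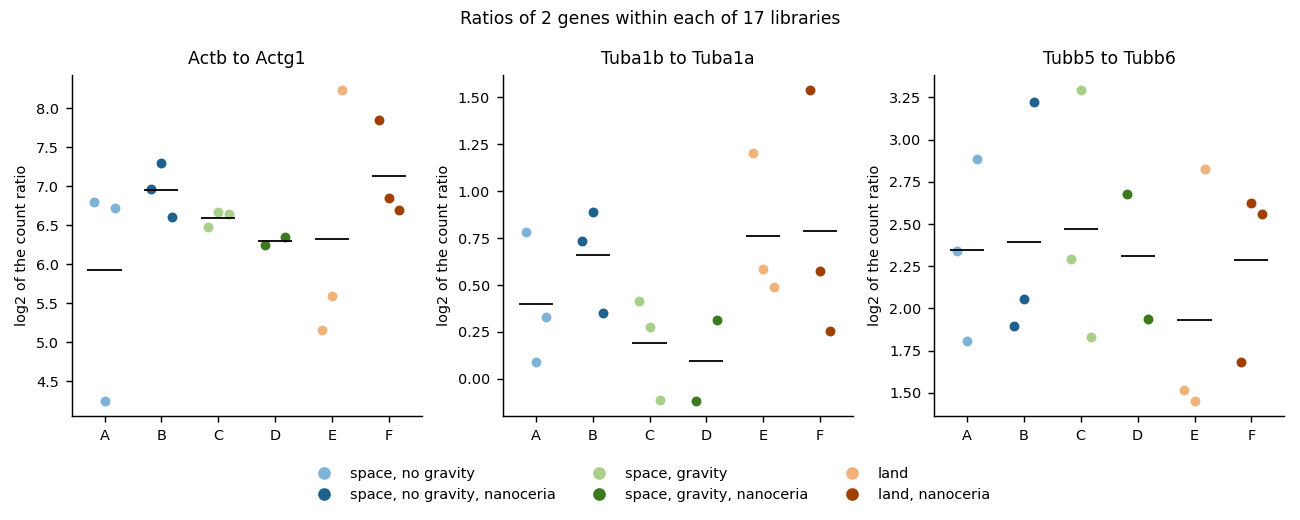
Points are log2 ratios of 2 genes' counts (y axis) in each library of groups A to F, with 0.5 added to each count, and black bars are group means. The smallest library is left out, and the Tuba1b to Tuba1a ratios of space with gravity (C and D) reach down to those of libraries with fewer Tuba1b than Tuba1a counts.

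The make-up of the beta-tubulin pool per length is given as a description. Tubb5 made up a median of 48.9% of the summed CPM/kb of the 5 beta-tubulins in space without gravity (44.6% to 64.6%), 45.5% in space with gravity (39.8% to 53.5%) and 31.9% on land (14.3% to 40.3%). For Tubb4b the medians were 24.6% (14.2% to 29.4%), 30.9% (26.3% to 34.4%) and 37.7% (23.5% to 70.3%) in the same order. Every library of space without gravity thus had a higher Tubb5 share than every land library, with 1 library of space with gravity just inside the land range. In the alpha-tubulin pool the medians were closer, with Tuba1b at 47.2%, 42.0% and 49.5% and Tuba1a at 38.1%, 39.6% and 36.2% in the same order. The smallest library is not part of these shares. Each share is divided by a family sum that holds repeated genes, so all shares, that of Tubb5 included, carry the counting limit given above.

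**Figure D5:**
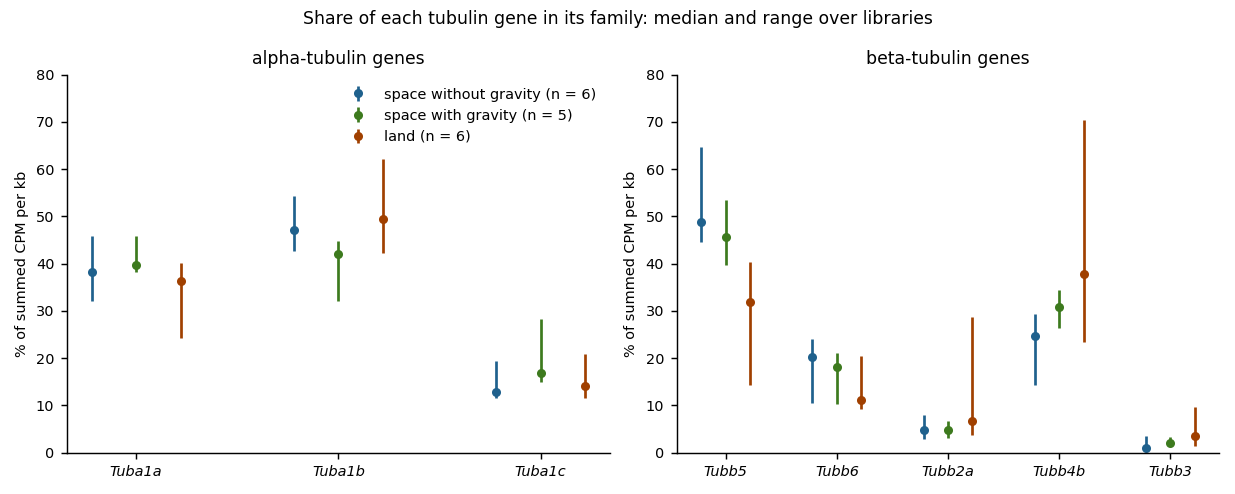
Points are median shares and bars the lowest and highest library (y axis, percent of the family's summed CPM per kb) for each tubulin gene in 3 regimes, with the smallest library left out. Tubb5 stands at 48.9% in space without gravity and 31.9% on land, and Tubb4b at 24.6% and 37.7%.

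Other genes of the filament systems were read against the 14.0% of all genes called in space with gravity against land (7.22% higher, 6.74% lower) and the 5.25% called in space without gravity. Of 9 other actins and tubulins tested, 1 was called in each space comparison, Tubb2b, which neighbours Tubb2a on chromosome 13 and shares most of its coding sequence. Tubb2b fell by 3.14 ± 0.64 in space with gravity (adjusted p = 0.00829) and differed by -2.48 ± 0.58 in space without gravity (adjusted p = 0.0253). Its level was 1.97 to 28.0 CPM on land and at most 1.12 CPM in the larger libraries of space with gravity. Space without gravity held 0.401 to 2.35 CPM and overlapped land. Counts were low, with 14 in the highest library of space without gravity and 6 in the lowest of land. Of 38 genes of actin filament assembly and turnover, 5 fell and 3 rose in space with gravity against land, with a list median of -0.54. The lowest were the monomer-binding thymosins Tmsb10 (-2.14 ± 0.38, adjusted p = 0.00495) and Tmsb4x (-1.94 ± 0.51, adjusted p = 0.0206), and the highest were the filament-severing destrin gene Dstn (1.51 ± 0.44, adjusted p = 0.0299) and the Arp2/3 subunit gene Arpc5 (1.34 ± 0.39, adjusted p = 0.0318). Without gravity in space, 1 of the 38 fell, Tmsb10 (-1.49 ± 0.36), and 1 rose, the capping protein gene Capza1 (1.54 ± 0.38), both with an adjusted p of 0.0289. Tmsb10 in space with gravity stayed called in all 12 fits that left out 1 library, Tmsb4x in 9, Dstn in 5 and Arpc5 in 3. Dstn and Arpc5 were not called with DESeq2 size factors (adjusted p = 0.0611 and 0.0729), and without replicate 3 of both land groups Tmsb4x was not (adjusted p = 0.0658). With that covariate (dominant share) in the fit no named gene of these lists or the lists below was called, and Tmsb10 was at -1.18 (adjusted p = 0.428) and Tubb2b at -1.80 (adjusted p = 0.521) in space with gravity. Tubb2b was called in 12 of 12 fits that left out 1 library in space with gravity and in 5 of 12 in space without gravity, and Capza1 in space without gravity in 5 of 12.

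Of 30 tested genes that bind, nucleate or modify microtubules, 4 rose and 1 fell in space with gravity against land, a share near that of all genes. Highest were Vash2, which removes the last tyrosine of alpha-tubulin (1.98 ± 0.54, adjusted p = 0.0248), and Clasp1, which stabilises growing ends (1.92 ± 0.52, adjusted p = 0.0237). The 1 that fell was Svbp, the chaperone and partner of vasohibins (-1.66 ± 0.48, adjusted p = 0.0292). Without gravity in space, 1 of 30 rose, the end-binding protein gene Mapre1 (1.51 ± 0.38, adjusted p = 0.0324). Of 21 tubulin folding genes, 1 fell in space with gravity, the prefoldin subunit gene Pfdn6 (-1.37 ± 0.42, adjusted p = 0.0386), and none in space without gravity. There edgeR gave 3 of 21 an unadjusted p under 0.05, beside 24.7% of all genes. In fits that left out 1 library Clasp1 was called in 7 of 12, Vash2 and Svbp in 5, Mapre1 in 4 and Pfdn6 in 3. With the covariate Svbp was at -0.57 (adjusted p = 0.843) and Pfdn6 at -0.42 (adjusted p = 0.889). None of 9 genes around SRF and none of 13 genes often used as expression references was called by edgeR in either comparison. At an unadjusted p under 0.05 there were 2 of 9 in each, and 1 and 2 of 13. The shares of all genes at that level were 31.9% with gravity and 24.7% without. For gravity and nanoceria edgeR called no gene of these lists, as it called none at all.

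Across the 17 larger libraries the levels of the 10 genes tended to go together. Of 45 pairs, 44 had a Pearson r above 0 for log2 CPM, with a median of 0.57, from -0.03 (Tubb5 and Tubb4b) to 0.82 (Tuba1a and Tubb2a). These values are a description, since the libraries share scaling and fall into groups. No such median was taken over pairs of other genes, so the values are not shown to be particular to these genes. Among 2316 well-expressed genes, those whose pattern was most like that of Actb were Myh9 (r = 0.91), R3hdm4 (0.90), Cbx1 (0.90), Klf10 (0.88) and Slc6a6 (0.87). For Tuba1b they were Inf2 (0.88), Cavin3 (0.86), Serpinh1 (0.85), Ptms (0.85) and Ndufa13 (0.83).

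The promoter of Tubb4b, the gene called in both comparisons with the fewest repeated stretches, is shown because of a motif that it repeats. The sequence is the 250 bases before the gene start, minus strand of GRCm38.p6, chr2:25224703-25224952, from RefSeq, with the motif CCAAT in capitals wherever it occurs on either strand.
Tubb4b promoter: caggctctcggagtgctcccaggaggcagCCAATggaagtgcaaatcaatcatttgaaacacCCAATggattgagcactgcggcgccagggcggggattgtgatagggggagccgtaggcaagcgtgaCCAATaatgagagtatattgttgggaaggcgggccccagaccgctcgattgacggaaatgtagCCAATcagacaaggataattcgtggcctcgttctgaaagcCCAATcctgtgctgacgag
It holds CCAAT 5 times. Of 32851 promoters of 300 bases (250 before to 50 after the start), 37.4% hold CCAAT at least once and 0.271% at least 5 times. The cut at 5 was taken from the Tubb4b promoter itself, so that share is a description. Promoters were matched for 8 of the 10 genes, all but Actb and Tubb6. The other 7 hold CCAAT 0 to 2 times, and among the other called genes Tubb2a and Tuba1b hold it 0 times and Tubb3 1 time. The Actg1 promoter holds 1 CArG box, the motif of SRF, starting 90 bases before the gene start, as do 1.63% of all promoters, and none of the other 7 members' promoters holds one. A match is a description of letters, not of binding.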

How the data were processed

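The authors deposited 1 file of raw counts per Ensembl gene for each of 18 polyadenylated RNA libraries, with exon coordinates and length, per the file headers. The submitters' processing notes name CASAVA, Trimmomatic 0.36.29, STAR, Subread, featureCounts and GRCm38.p6; settings, strand and the treatment of reads with several matches are not given in the sources used here. The 18 small RNA samples were not analysed here. Of 49315 identifiers, 49056 were in GENCODE M21, which gave the symbols.

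Counts were filtered with filterByExpr, scaled by TMM and fitted with edgeR 4.0.16 (R 4.3.3) as group means over all 18 libraries with the robust quasi-likelihood test, 12 residual degrees of freedom and a Benjamini-Hochberg adjusted p threshold of 0.05. The fit was also run on simulated counts with a common spread for all genes, a setting unlike these data, so the calls draw no support from it. Standard errors are the absolute log2 fold change divided by the square root of F. CPM are counts scaled by TMM library size, and CPM/kb divides them by exon length. For ratios of counts, 2-sided exact permutation tests moved libraries between the compared groups separately in untreated and nanoceria libraries (for nanoceria, separately in each regime). The depth was 23858 counts in 1 library and at least 2986628 in the rest, and 3 counts were taken as the floor, which covers counting error only. The labels put 3 experiment units in each group, so p-values measure the spread between these units. Members and gene lists were chosen with earlier results of these data known. All 10 members were named whatever their values; from each list, the 2 highest and 2 lowest called genes per averaged comparison; and for Actb and Tuba1b the 5 genes with the highest r over 17 libraries. Other genes (markers) came from fixed lists. Alternatives were DESeq2 1.42.0 (size factors or test), TMMwsp scaling, limma 3.58.1 voom, 6 dominant genes removed or their share as a covariate, 2 other filters, fewer libraries and leaving out each library.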

Additional observations from a re-analysis of the deposited data

How the results depend on the processing

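Of the 10 genes, 5 were called in space with gravity against land with DESeq2 size factors and 5 with the DESeq2 test, against 3 as reported, 1 with only the compared groups in the fit and 0 with the share of dominant genes as a covariate; limma voom called 4. In space without gravity against land the 3 became 0 with the covariate, 1 with only the compared groups and 1 without replicate 3 of both land groups, while the DESeq2 test called 4 and voom 2. Leaving out 1 library gave 1 to 3 and 0 to 2 genes. Pairs of groups with 0 called as reported gave, in space with gravity against land, 2 untreated and 2 with nanoceria by DESeq2, 3 untreated by voom, 1 with nanoceria without a filter, and 1 of each with a mean of at least 50 counts; in space without gravity against land they gave 1 untreated and 1 with nanoceria by DESeq2 and 1 untreated by voom. DESeq2 gave Tubb2a no adjusted p in the 4 averaged comparisons, so its calls there leave this gene out. Over all genes, the 1613 and 607 calls became 2691 and 1524 with the DESeq2 test, 1639 and 989 with voom, 2242 and 1466 without a filter and 1072 and 387 with only the compared groups; for gravity and nanoceria, 229 and 214 were called without a filter and 11 and 1 by DESeq2. Log2 fold changes changed sign in 18 of 422 values outside leave-one-out fits, none of them called as reported. For gravity these were Tuba1a at 0.064 under size factors and 0.058 by DESeq2, Tubb4b at -0.076 without the smallest library and -0.43 with the covariate, and Actg1 at -0.16 with the covariate. Against land they were Tubb6 at 0.41 (with gravity, covariate) and, without gravity, Tubb6 at 0.016 with dominant genes removed, 0.052 without a filter, 0.50 with the covariate and 0.0016 with only the compared groups, and Tubb5 at -0.088 under size factors, -0.088 by DESeq2 and -0.030 with a mean of at least 50 counts. For nanoceria they were, by voom, Actg1 at -0.11, Tuba1c at -0.023 and Tubb5 at -0.024, and, without replicate 3 of both land groups, Actg1 at -0.18 and Tuba1c at -0.10. Leaving out 1 library changed the sign within these ranges: for gravity Tuba1a -0.14 to 0.15, Tuba1c -0.40 to 0.031, Tubb3 -1.14 to 0.21 and Tubb4b -0.076 to 0.40; for nanoceria Actg1 -0.19 to 0.22, Tuba1c -0.11 to 0.23, Tubb2a -0.071 to 0.74, Tubb4b -0.37 to 0.049, Tubb5 -0.23 to 0.21 and Tubb6 -0.28 to 0.23; for space without gravity against land Tubb6 -0.10 to 0.18. For log2 ratios, 10 added counts gave 0.44 for actins under gravity, 0.011 for Tuba1b to Tuba1a under nanoceria, and -0.044 and -0.16 for Tubb5 to Tubb6 in space with gravity against land and under nanoceria. Without the smallest library Tuba1b to Tuba1a was 0.065 under nanoceria and Tubb5 to Tubb6 was -0.023 under gravity. Leaving out 1 library gave, for actins, -0.22 to 0.42 (gravity) and -0.58 to 0.19 (space with gravity against land); for Tuba1b to Tuba1a, -1.10 to -0.63 (space with gravity against land) and -0.25 to 0.065 (nanoceria); and for Tubb5 to Tubb6, -0.11 to 0.30 (gravity), -0.046 to 0.38 (space with gravity against land) and -0.14 to 0.15 (nanoceria). The cause was not tested. No paired analysis was possible because the labels number no replicates, so that numbers here only name libraries. Depth limits Tubb3, with 2 counts in its lowest libraries, and the smallest library most.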
